A study of Mus musculus with 5 samples.

Results

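The unfolded protein response and the integrated stress response were followed through 32 genes in mouse liver. They comprise chaperones and folding enzymes of the endoplasmic reticulum (ER), genes of ER-associated degradation (ERAD), the stress sensors with their transcription factors, and targets of ATF4 and CHOP. The members are a list of symbols grouped by role. No threshold on measured values chose them, but earlier results of these data were known when they were chosen. Each of the 32 matched 1 of the 33589 rows of the deposited FPKM table (fragments scaled to transcript length and library size). Of these, 30 had a mean of at least 1 FPKM over the 5 libraries and entered the test among 10820 genes. Asns and Psat1 lay below that filter and are given as values only. The tested livers were 3 of genotype Lyve1-Cre;Hegfl/fl, called knockouts here, and their reference was 2 of genotype Hegfl/fl, called controls. All 5 came from male mice that were given a high-fat diet from 6 weeks of age for 4 weeks, so the floxed Heg1 allele and the diet were common to both groups. The Cre driver Lyve1 is active in lymphatic and liver sinusoidal endothelial cells, which are a minority of liver cells, and hepatocytes are not its target. Hepatocytes are named in the title of the series, but every sample is labelled as liver.

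The ER folds secreted and membrane proteins, and the liver, which makes most plasma proteins, carries a heavy folding load. When unfolded proteins accumulate, the sensors IRE1, ATF6 and PERK are activated. IRE1 splices the mRNA of Xbp1, ATF6 is cleaved to a transcription factor, and together they drive chaperone and ERAD genes. PERK phosphorylates eIF2, which lowers general translation and favours translation of ATF4, and ATF4 induces CHOP and genes of amino acid supply. Feeding, fasting and lipid load are all known to alter this programme in liver. Splicing, cleavage and phosphorylation are not visible in FPKM per gene, so only transcript levels are described.

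Heg1, the targeted gene, had 0.45, 0.43 and 0.50 FPKM in the knockouts and 0.48 and 0.35 FPKM in the controls (log2 fold change 0.046, SE 0.11, limma adjusted p = 0.934, with the filter lowered to 0.1 FPKM). An exact two-sided permutation test gave p = 0.5, where 0.1 is the smallest possible. Which exons are floxed is not stated, and Heg1 is read over all liver cells, so it checks the labels only weakly, and the sign of its fold change turned under quantile normalization, length correction and without control 2. Lyve1 itself had 3.90, 7.32 and 10.5 FPKM in the knockouts and 7.34 and 8.92 FPKM in the controls (log2 fold change -0.23, SE 0.34, limma adjusted p = 0.895), and without knockout 1 the sign turned. Hepatocyte markers were abundant in every library. The libraries summed to 797692 to 820498 FPKM, their depth is unknown, and the labels state neither litter nor batch nor separate animals, so SDs and p-values cover the spread between these libraries. In bulk liver, fewer cells of a type and less RNA per cell cannot be told apart. No gene of the 10820 passed the test (limma with Benjamini-Hochberg adjustment, smallest adjusted p = 0.587, against 757 genes or 7% at an unadjusted p below 0.05). Knockout 2 stood apart in the ER genes below. Over all tested genes its median distance from the other libraries, 0.145 on the log2(FPKM + 1) scale, was also the largest. The other 4 were at 0.13 to 0.137.

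Promoters are shown for the genes that hold a known regulatory element of this response. The ER stress response element (ERSE, CCAAT and CCACG with 9 bases of any kind between them) is bound by NF-Y together with ATF6 or XBP1. Windows from RefSeq (GRCm38.p6, 250 bases before to 50 after the start) were present for 29 of the 32 genes and were searched on both strands for exact matches. A gene with several windows counted once, as a match if any of them matched. An ERSE was found for 9 of these 29 genes (31.0%), and for 37 of all 27025 genes with a window (0.137%). By role it was present in 7 of 13 chaperone and folding genes and 2 of 5 ERAD genes, and in 0 of 5 sensor and factor genes and 0 of 6 ATF4 and CHOP targets. These genes were collected for the pathway in which the motif was described, so the share is a description of them and not a result of the livers. The 10 matches lay 26 to 212 bases before the start. They are printed on the strand of the gene with the match in capitals and 10 bases on either side. The first 6 read in the forward direction and the last 4 as the reverse complement.
Hspa5 ERSE, chr2:34772015-34772053, plus strand: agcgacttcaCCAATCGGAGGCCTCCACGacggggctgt
Hsp90b1 ERSE, chr10:86705628-86705666, minus strand: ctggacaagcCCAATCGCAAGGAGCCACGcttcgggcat
Canx ERSE, chr11:50325790-50325828, minus strand: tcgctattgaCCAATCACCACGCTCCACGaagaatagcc
Pdia6 ERSE, chr12:17266481-17266519, plus strand: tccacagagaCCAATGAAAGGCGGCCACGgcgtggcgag
Dnajc3 ERSE, chr14:118937817-118937855, plus strand: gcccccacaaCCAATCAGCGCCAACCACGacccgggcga
Syvn1 ERSE, chr19:6046522-6046560, plus strand: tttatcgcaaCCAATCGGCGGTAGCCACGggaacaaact
Calr ERSE, chr8:84847065-84847103, minus strand: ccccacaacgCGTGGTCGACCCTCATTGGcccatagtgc
Creld2 ERSE, chr15:88819510-88819548, plus strand: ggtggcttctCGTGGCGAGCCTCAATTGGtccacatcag
Derl3 ERSE, chr10:75893232-75893270, plus strand: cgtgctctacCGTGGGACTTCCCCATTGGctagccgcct
Hsp90b1 ERSE, chr10:86705523-86705561, minus strand: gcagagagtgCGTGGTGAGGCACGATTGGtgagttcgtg
The window of Hspa5, which encodes the master chaperone BiP, is shown whole up to the start of transcription, with the same ERSE in capitals.
Hspa5 upstream window, chr2:34771840-34772089, plus strand: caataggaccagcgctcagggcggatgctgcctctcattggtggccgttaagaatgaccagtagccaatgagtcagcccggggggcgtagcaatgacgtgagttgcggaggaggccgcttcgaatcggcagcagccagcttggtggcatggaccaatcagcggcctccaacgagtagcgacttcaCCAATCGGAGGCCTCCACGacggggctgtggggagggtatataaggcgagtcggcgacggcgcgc

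The related ERSE-II (ATTGG and CCACG with 1 base between them) was present for 2 of the 29 genes, Herpud1 and Dnajb11. Of all 27025 genes with a window 12 had it (0.0444%). The C/EBP-ATF response element of ATF4 targets (CARE, searched as TGATGNAA) was present in 3 of the 6 ATF4 and CHOP targets, Chac1, Trib3 and Asns. It was also present in Herpud1, and in 4.51% of all genes with a window. The XBP1 element (UPRE, TGACGTGG) was found for 0 of the 29 genes and for 0.714% of all genes with a window. This says only that these letters are not in the windows of the 29. Herpud1 was the only one of the 29 with matches of 2 different motifs, which do not overlap. Its matches and those of Chac1 and Asns are printed as examples, picked because these genes did not follow the chaperones below. The match of Trib3, which did not follow them either, lies after the start and is not printed. Dnajb11, with the other ERSE-II, did follow them. A link between these motifs and the levels was not tested.
Herpud1 ERSE-II, chr8:94386367-94386397, plus strand: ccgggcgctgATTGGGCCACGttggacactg
Herpud1 CARE, chr8:94386307-94386334, plus strand: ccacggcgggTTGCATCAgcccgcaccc
Chac1 CARE, chr2:119351039-119351066, plus strand: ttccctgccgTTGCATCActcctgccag
Asns CARE, chr6:7693215-7693242, minus strand: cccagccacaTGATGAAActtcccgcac

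Most chaperone and folding genes were lowest in the same liver, knockout 2, and none passed the test between genotypes. Hspa5 (ENSMUSG00000026864.13) lies on the plus strand of chromosome 2 in mm10, at 34771970 to 34777547 in GENCODE, which places its first base before the RefSeq start used for the window above. Hspa5 had 324, 190 and 410 FPKM in the knockouts and 365 and 339 FPKM in the controls. Knockout 2 was the lowest and knockout 3 the highest of the 5 libraries, and the controls lay between them. The group difference of Hspa5 was -0.26 as a log2 fold change (SE 0.30, limma adjusted p = 0.85, 95% interval -0.98 to 0.46). Single knockouts ranged over 1.11 on the log2(FPKM + 1) scale, but a range of single libraries and a difference of means are unlike measures. Hsp90b1, which encodes the ER paralog of HSP90, had 333, 226 and 329 FPKM in the knockouts and 334 and 296 FPKM in the controls. Calr encodes the lectin chaperone calreticulin and was the most abundant of the 32 genes, with 503, 324 and 419 FPKM in the knockouts and 475 and 446 FPKM in the controls. In both genes, as in Hspa5, knockout 2 alone lay below the controls by more than the controls differed from each other.

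**Figure D1:**
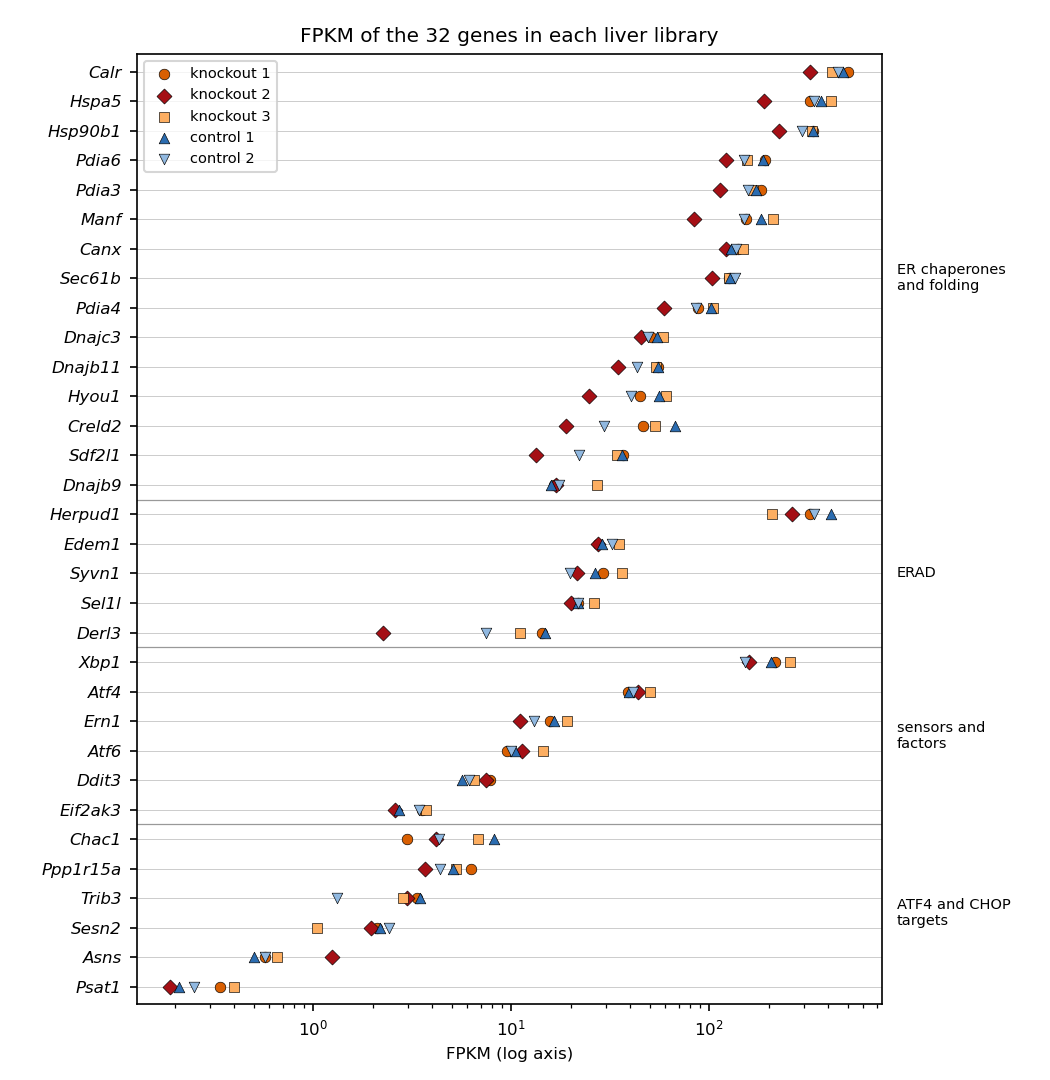
FPKM on a log axis (x) of the 32 genes (rows, by role and by mean level), with 1 point per library and no averaging. Knockout 2 (dark red diamond) lies at the left end of 14 of the 15 chaperone and folding rows, while in Herpud1, Trib3, Sesn2 and Asns another library does.

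The same position recurred through the group, with and without an ERSE. Knockout 2 held the lowest FPKM of the 5 libraries in 14 of the 15 chaperone and folding genes (93.3%), against 20.1% of all 10820 tested genes. The exception was Dnajb9, the BiP cochaperone ERdj4, with 16.4, 16.9 and 27.0 FPKM in the knockouts and 15.9 and 17.5 FPKM in the controls. Relative to the mean of knockouts 1 and 3, knockout 2 stood at 37.8% to 84.2% over the 15 genes (median 64.5%), where the median of all tested genes was 98.1%. Sdf2l1 and Creld2, both small ER proteins known to be strongly induced by ER stress, had the lowest ratios. Sdf2l1 had 36.6, 13.3 and 34.1 FPKM in the knockouts and 36.2 and 22.0 FPKM in the controls. Creld2 had 46.4, 18.8 and 53.1 FPKM in the knockouts and 67.5 and 29.6 FPKM in the controls. In both of these genes control 2 was the next lowest library, so the groups overlapped at their low ends. Of the 9 genes with an ERSE printed above 8 were lowest in knockout 2, Syvn1 being the exception, and of 7 other tested genes with an ERSE 3 were.

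Manf, a secreted ER protein that is retained by BiP, had 153, 83.5 and 209 FPKM in the knockouts and 182 and 149 FPKM in the controls. Hyou1, the nucleotide exchange factor of BiP, had 44.6, 24.7 and 60.5 FPKM in the knockouts and 56.1 and 40.4 FPKM in the controls. For both, knockout 2 stood below 50% of the mean of the other knockouts, as did 5 of the 32 genes and 1.44% of all tested genes. The disulfide isomerases Pdia3, Pdia4 and Pdia6 had 64.5%, 61.4% and 70.0% of that mean in knockout 2. Pdia4, for example, had 87.8, 59.1 and 105 FPKM in the knockouts and 102 and 86.1 FPKM in the controls. The BiP cochaperone Dnajb11 had 54.8, 34.6 and 54.0 FPKM in the knockouts and 55.2 and 43.3 FPKM in the controls. Dnajc3, the cochaperone p58IPK, varied less, with 51.1, 45.1 and 58.3 FPKM in the knockouts and 54.6 and 48.9 FPKM in the controls. The lectin chaperone Canx (calnexin) was the steadiest of the group, its highest library being 1.22 times its lowest. Sec61b, a subunit of the translocon, was the only one of the 15 whose groups did not overlap, with 126, 103 and 127 FPKM in the knockouts and 127 and 135 FPKM in the controls. Its log2 fold change was -0.15 (SE 0.12, limma adjusted p = 0.793), and knockout 3 lay just below control 1.

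**Figure D2:**
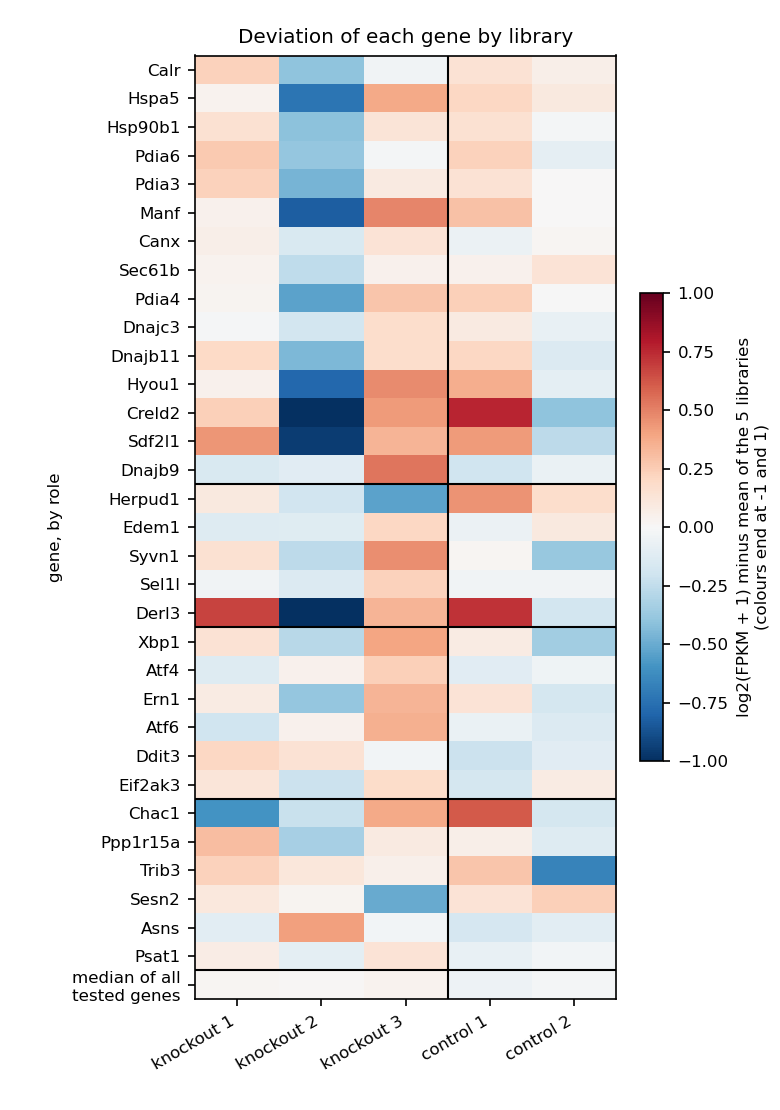
Deviation of log2(FPKM + 1) from the mean of the 5 libraries (colour, red above and blue below) for each gene (rows, by role) and library (columns, knockouts left of controls), with the median of all tested genes in the bottom row. The chaperone rows are blue in knockout 2, where their median was -0.45, while the bottom row stays between -0.052 and 0.037.

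The spread between livers and the genotype contrast were set side by side. A range of 3 single libraries tends to exceed a difference of means, so the counts that follow cannot weigh 1 against the other. The range within the 3 knockouts exceeded the difference of the group means in 15 of 15 chaperone and folding genes, and in 79.1% of all tested genes. The median of that range was 0.69 on the log2(FPKM + 1) scale for the 15 genes, against 0.27 for all tested genes. The median deviation of the 15 genes was 0.057, -0.45 and 0.18 in knockouts 1, 2 and 3, against 0.21 and -0.023 in controls 1 and 2. The controls differed as well, control 1 being above control 2 in 12 of the 15 (44.5% of all tested genes). Of the 15 genes 13 had a negative and 2 a positive log2 fold change (median -0.14, range -0.30 to 0.22). Of all tested genes 64.2% were positive, with a median of 0.061. None of the 15 passed the test (limma adjusted p between 0.793 and 0.989). Leaving out knockout 2 turned the count to 13 of 15 positive (median 0.087), with 65.2% of all tested genes positive. Knockout 2 was picked out by these same values, so this turn only restates its low position. Leaving out control 1 gave 7 of 15 positive (median -0.0068), with 58.5% of all tested genes positive. Leaving out knockout 3 gave 0 of 15 (median -0.19), with 61.2% of all tested genes positive.

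**Figure D3:**
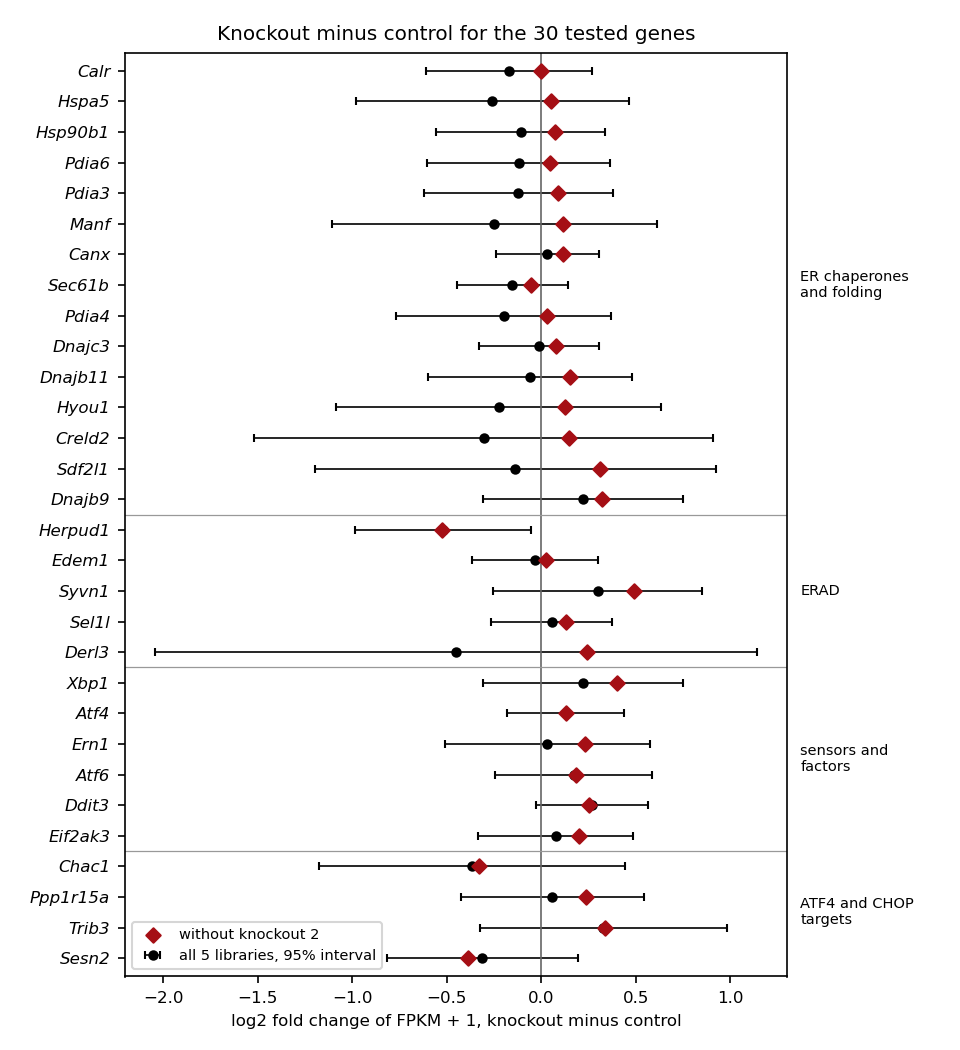
Log2 fold change of FPKM + 1, knockout minus control (x), for the 30 tested genes (rows, by role), as the estimate from all 5 libraries with its 95% interval (black) and the estimate without knockout 2 (dark red). Only the interval of Herpud1 lies to one side of 0 (1 of 30 genes, where 7% of all tested genes had a limma unadjusted p below 0.05). Without knockout 2, 13 of the 15 chaperone estimates lie above 0, all with adjusted p above 0.05.

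The ERAD genes did not move as a unit. Derl3, a derlin of the retrotranslocation machinery, had the largest swing of all 32 genes, with 14.3, 2.24 and 11.1 FPKM in the knockouts and 14.8 and 7.43 FPKM in the controls. Knockout 2 had 17.6% of the mean of knockouts 1 and 3, and the highest library had 6.60 times the lowest. Derl3 differed between the groups by a log2 fold change of -0.45 (SE 0.66, limma adjusted p = 0.878), and by 0.24 with knockout 2 left out. Syvn1, the ubiquitin ligase HRD1, had 29.2, 21.6 and 36.5 FPKM in the knockouts and 26.5 and 19.8 FPKM in the controls. Sel1l, the adaptor of HRD1, had 21.7, 20.1 and 26.2 FPKM in the knockouts and 21.6 and 21.7 FPKM in the controls. Edem1, a mannosidase-like protein that delivers misfolded glycoproteins, had 27.4, 27.5 and 34.9 FPKM in the knockouts and 28.8 and 32.1 FPKM in the controls. In Syvn1, Sel1l and Edem1 knockout 3 was the highest library, and the groups overlapped.

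Herpud1, an ER membrane protein that assembles the HRD1 complex, followed another order. It lies on the plus strand of chromosome 8 in mm10, at 94386438 to 94395377. It had 323, 263 and 208 FPKM in the knockouts and 412 and 340 FPKM in the controls. Every knockout lay below both controls, and the lowest was knockout 3, the library with the highest Hspa5. Its group difference of -0.52 as a log2 fold change (SE 0.19, 95% interval -0.99 to -0.053) was the largest in size of the 30 tested genes. It did not pass over all genes (limma unadjusted p = 0.034, adjusted p = 0.700). Herpud1 was the only 1 of the 30 with a limma unadjusted p below 0.05, a level that 7% of all tested genes reached. Leaving out 1 library at a time gave -0.67 to -0.36, where the sign could not turn because the groups do not overlap. The groups of 4 of the 30 tested genes did not overlap (Herpud1, Sesn2 and Sec61b lower, Ddit3 higher), where 25.3% of all tested genes did not overlap. By direction the background was 6.38% lower and 18.9% higher.

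Among the sensors and transcription factors, all 6 had a positive log2 fold change (median 0.15) while 64.2% of all tested genes did, and 5 of the 6 had their highest FPKM in knockout 3. Under median-of-ratios scaling 5 of 6 were positive (50.7% of all tested genes), and under quantile normalization 4 of 6 (49.4% of all). Xbp1, the most abundant of them, had 214, 160 and 255 FPKM in the knockouts and 205 and 152 FPKM in the controls. Knockout 2 and control 2 were the low libraries, as in Creld2. Its log2 fold change was 0.22 (SE 0.22, limma adjusted p = 0.829), and it shrank to 0.0054 with control 2 left out. Ern1, which encodes IRE1, had 15.8, 11.1 and 19.1 FPKM in the knockouts and 16.5 and 13.0 FPKM in the controls, with the same pair of libraries lowest. Atf6 had 9.49, 11.4 and 14.4 FPKM in the knockouts and 10.5 and 9.94 FPKM in the controls, and here knockout 2 was not low. Eif2ak3, which encodes PERK, had 3.55, 2.60 and 3.73 FPKM in the knockouts and 2.70 and 3.42 FPKM in the controls, with no order by group.

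Atf4 had 38.8, 43.8 and 50.3 FPKM in the knockouts and 39.2 and 41.3 FPKM in the controls. Its 2 lowest livers were knockout 1 and control 1, and knockout 2 was the second highest, unlike for the chaperones. Ddit3, which encodes the pro-apoptotic factor CHOP, had 7.86, 7.48 and 6.52 FPKM in the knockouts and 5.62 and 6.11 FPKM in the controls. All 3 knockouts lay above both controls. The group difference of Ddit3 was 0.27 as a log2 fold change (SE 0.12, limma unadjusted p = 0.0679, adjusted p = 0.716, 95% interval -0.026 to 0.56). It ran from 0.22 to 0.34 when 1 library was left out, where groups that do not overlap cannot change sign. Ddit3 (plus strand of chromosome 10 in mm10, at 127290774 to 127296288) carries a symbol that GENCODE gives to 2 genes, and shares 68 exonic bases with Mars1, annotated as Mars on the opposite strand. The sources used here do not say if reads were counted by strand. Mars1, the methionyl-tRNA synthetase, had 21.1, 23.4 and 26.4 FPKM in the knockouts and 24.4 and 25.8 FPKM in the controls, another order than Ddit3. In all, 9 of the 32 genes share between 12 and 485 exonic bases with a gene on the opposite strand.

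The ATF4 and CHOP targets were scarce, at a mean of 0.278 to 5.29 FPKM, and had no common order. Chac1, a glutathione-degrading enzyme, had 2.98, 4.16 and 6.80 FPKM in the knockouts and 8.19 and 4.33 FPKM in the controls. Trib3, a pseudokinase induced by CHOP, had 3.33, 2.99 and 2.83 FPKM in the knockouts and 3.47 and 1.32 FPKM in the controls. The knockouts of Trib3 were close to each other and lay between the 2 controls. Ppp1r15a, which encodes the phosphatase subunit GADD34 that reverses eIF2 phosphorylation, had 6.24, 3.66 and 5.24 FPKM in the knockouts and 5.09 and 4.35 FPKM in the controls. Sesn2, a stress-induced inhibitor of mTORC1, had 2.11, 1.95 and 1.04 FPKM in the knockouts and 2.18 and 2.41 FPKM in the controls. The groups of Sesn2 did not overlap (log2 fold change -0.31, SE 0.21, limma adjusted p = 0.776), and knockout 3 was the low library, as in Herpud1. Asns, the asparagine synthetase, had 0.57, 1.24 and 0.66 FPKM in the knockouts and 0.50 and 0.57 FPKM in the controls. It was the only one of the 32 genes with its highest value in knockout 2. Psat1, of serine synthesis, had 0.34, 0.19 and 0.40 FPKM in the knockouts and 0.21 and 0.25 FPKM in the controls. Of the 4 tested targets 2 had a positive log2 fold change (64.2% of all tested genes did), and none passed (smallest limma adjusted p = 0.776).

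Levels per transcript length ordered the 32 genes over a wide range. Calr, Hspa5, Herpud1 and Hsp90b1 led, at means over the 5 libraries of 433, 326, 309 and 304 FPKM, and their ranges over the libraries overlapped. Xbp1 followed at 197 FPKM, well above Atf4 (42.7 FPKM), Ern1 (15.1 FPKM), Atf6 (11.1 FPKM), Ddit3 (6.72 FPKM) and Eif2ak3 (3.20 FPKM). Asns and Psat1 closed the order, at 0.708 and 0.278 FPKM.

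A further 104 genes of the same pathways, taken from 4 lists chosen with earlier results of these data known, were read in the same fit. Of these 90 were tested and 0 passed in either direction (limma, smallest adjusted p = 0.675, with 5 of the 90 at an unadjusted p below 0.05, against 7% of all tested genes). Groups did not overlap for 13 of the 90, 11 higher and 2 lower, where 18.9% of all tested genes were higher and 6.38% lower without overlap. Of the 43 tested genes of ER folding, translocation and ERAD 24 had their lowest FPKM in knockout 2 (55.8%) and 25 their highest in knockout 3 (58.1%), against 20.1% and 25.8% of all tested genes. Sec61a1, the translocon channel, had 76.8, 53.6 and 97.7 FPKM in the knockouts and 71.5 and 68.8 FPKM in the controls. P4hb, the founding disulfide isomerase, had 467, 399 and 582 FPKM in the knockouts and 497 and 540 FPKM in the controls. These 2 were chosen after their values were seen, and both repeat the low knockout 2 and high knockout 3 of Hspa5. By the rule of smallest p, Derl1 had 46.9, 45.2 and 56.9 FPKM in the knockouts and 40.1 and 39.4 FPKM in the controls (log2 fold change 0.31, SE 0.12, limma adjusted p = 0.700). The VCP cofactor Nploc4 and the thioredoxin-domain protein Txndc11 had log2 fold changes of 0.18 and 0.21.

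**Figure D4:**
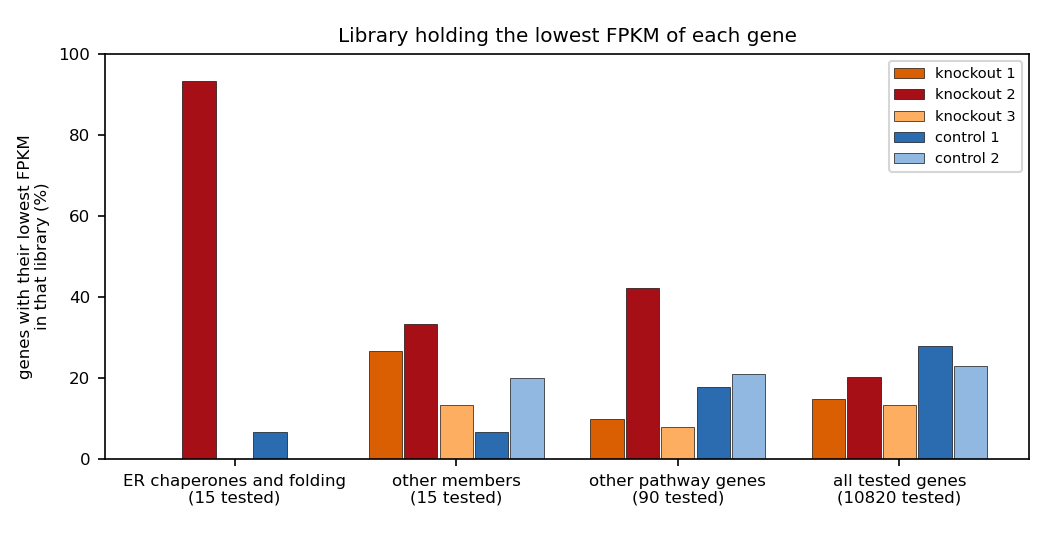
Share of genes (y, in percent) whose lowest FPKM lies in each library, for the 15 chaperone and folding genes, the other 15 tested genes of the 32, the 90 other tested pathway genes and all 10820 tested genes (bars, knockouts left of controls). Knockout 2 holds 93.3%, 33.3%, 42.2% and 20.1% of these sets.

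The lists of integrated stress genes outside the 32 differed in which library was lowest. Of 16 tested further ATF4 and CHOP targets 2 were lowest in knockout 2, and 8 had a positive log2 fold change. Of all tested genes 20.1% were lowest there and 64.2% were positive, for this list and those below. The genes named from each list are those of smallest p, so groups without overlap partly follow from that choice. Bbc3, which encodes the pro-apoptotic PUMA, had 6.07, 5.70 and 3.71 FPKM in the knockouts and 2.24 and 2.36 FPKM in the controls. All 3 knockouts lay above both controls (log2 fold change 0.88, SE 0.20, limma unadjusted p = 0.00356, adjusted p = 0.675). Slc38a2, an amino acid transporter, had 25.0, 27.7 and 23.8 FPKM in the knockouts and 32.1 and 31.9 FPKM in the controls (log2 fold change -0.32, SE 0.11, limma adjusted p = 0.700). The stress gene Ddit4 had 4.21, 8.23 and 4.64 FPKM in the knockouts and 8.01 and 13.1 FPKM in the controls. Cebpb had 104 ± 24.5 FPKM in the knockouts and 140 ± 36.9 FPKM in the controls (SD, n = 3 and 2). These members of 1 list thus differed in direction. Of 19 tested further sensors and eIF2 genes 5 were lowest in knockout 2, and 12 had a positive log2 fold change. Eif2b2, a subunit of the exchange factor of eIF2, had 38.0, 20.7 and 33.0 FPKM in the knockouts and 15.5 and 20.3 FPKM in the controls (log2 fold change 0.71, SE 0.26, limma adjusted p = 0.700). The groups of the ER-bound factor gene Creb3l2 and of the ATF6-cleaving protease gene Mbtps2 did not overlap either, both being higher. Of all tested genes 18.9% were higher without overlap. Creb3l3 had a log2 fold change of 0.24. Of the 12 tRNA synthetases 6 had a positive log2 fold change, 7 were lowest in knockout 2 (58.3%) and 6 were highest in knockout 3. The groups of Aars1 did not overlap (40.3 ± 3.02 FPKM in the knockouts and 36.6 ± 0.099 FPKM in the controls), and Cars1 and Lars1 had log2 fold changes of -0.23 and -0.33.

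Other cell types were read beside the low knockout 2. Summed hepatocyte markers stood at 73859, 74281 and 88137 FPKM in the knockouts and 90102 and 86672 FPKM in the controls, with 3 of 8 markers higher. Knockouts 1 and 2 had the low sums, and Alb alone made up 37676, 40386 and 50739 FPKM of them in the knockouts and 50645 and 51017 FPKM in the controls. Kupffer cell markers summed to 304, 368 and 357 FPKM in the knockouts and 214 and 357 FPKM in the controls, with 8 of 8 markers higher. The groups of all 8 overlapped, control 1 had the low sum, and 64.2% of all tested genes were higher. Markers of B and plasma cells, whose secretory state relies on the same genes, summed to 7.16, 11.2 and 7.51 FPKM in the knockouts and 4.14 and 7.24 FPKM in the controls, with Ms4a1 below 0.5 FPKM throughout. Only 2 of these 7 markers passed the filter. Neutrophil markers summed to 5.86, 9.21 and 4.34 FPKM in the knockouts and 3.75 and 5.52 FPKM in the controls. Sinusoidal endothelial markers summed to 181, 132 and 141 FPKM in the knockouts and 164 and 141 FPKM in the controls. The B and plasma cell and neutrophil sums were thus highest in knockout 2, and the endothelial sum was lowest there. The Kupffer sum was only slightly higher there than in knockout 3 and control 2, and 4 of 8 Kupffer markers were highest there. The part of these cells in the chaperone levels of knockout 2 was not tested. Of 8 markers of pancreatic acinar cells, which are rich in ER chaperones, 6 were listed at 0 in every library. The list summed to 65.7, 63.7 and 44.0 FPKM in the knockouts and 54.2 and 43.0 FPKM in the controls, nearly all of it Cela1. Erythroid markers summed to 1329, 244 and 141 FPKM in the knockouts and 136 and 146 FPKM in the controls, highest in knockout 1. Stellate markers summed to 184, 228 and 273 FPKM in the knockouts and 238 and 250.4 FPKM in the controls, and cholangiocyte markers to 73.5, 51.5 and 56.0 FPKM in the knockouts and 30.2 and 41.4 FPKM in the controls.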

How the data were processed

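RNA of 5 mouse livers was sequenced as paired ends, per the labels' protocols. The authors deposited FPKM per gene symbol, rounded to 2 decimals. The submitters' processing notes name HISAT2, StringTie and DESeq2 and the mm10 build, with no versions or roles. Both deposited tables held the same 33589 rows, 220 of them repeating a symbol. FPKM are not counts. Values of genes with 1 exon of 150 to 900 nt lay within 0.1 of a whole multiple of a common step in only 24.1% to 27.6% of cases, so reads were not recovered and depth is unknown. Groups came from the labels. FPKM scale to a fixed total, so a shift in abundant transcripts moves all others.

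The test was limma 3.58.1 in R 4.3.3 on log2(FPKM + 1), with a trended prior variance, a filter of 1 mean FPKM, genotype as the only term, two-sided p-values and Benjamini-Hochberg adjustment over 10820 genes at 0.05. Fold changes on this scale understate those of low genes. The fit was tested on simulated data. Other settings were a pseudocount of 0.1, other filters, scalings, weights, a replicate block and leaving out each library. Genes named are the 32, and of each pathway list the 4 of smallest p, some of which are not reported here. The genes and lists were chosen with earlier results of these data known. Coordinates are from GENCODE M21 (GRCm38, also called mm10), where 30470 rows were found by symbol, and promoter windows from RefSeq.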

Additional observations from a re-analysis of the deposited data

How the results depend on the processing

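None of the 30 tested genes of the 32 passed in any of the 15 other settings (smallest limma adjusted p = 0.309), nor did any of the other pathway genes, and 9 of the 30 kept their sign in all of them. Over all genes 0 passed in every setting except the replicate block (5 genes) and the fit without control 1 (1 gene). The labels number livers within each genotype, and 2 numbers are shared. Deviations from the group means correlated at 0.227 and 0.196 for same-numbered livers. With the other control, knockouts 1 and 2 were at -0.227 and -0.196, because the deviations of 2 controls mirror each other. The 2 values are therefore not independent, and no label states a pairing. With the replicate block, knockout 3 had no partner, and the median of the 30 log2 fold changes was -0.14, as without knockout 3. Where leaving out 1 library left 1 control, that library was assumed to vary like the knockouts.

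The median log2 fold change of the 30 genes was -0.085, between -0.15 and -0.073 with the other scalings, weights and pseudocount. It was -0.11 over the 26 genes that passed a filter of 5 FPKM and -0.046 over all 32 with a filter of 0.1 FPKM or none. Leaving out 1 library gave -0.17 to 0.13, the highest value without knockout 2 (and 0.034 without control 1). The number of genes with groups that do not overlap was 4, but 2 with quantile normalization and 7 to 11 with 1 library left out, where 37.2% to 52.8% of all tested genes did not overlap. Over all tested genes it was 2048 higher and 690 lower, but 1289 and 1312 with median-of-ratios scaling, 1182 and 1245 with quantile normalization, and 1159 and 1222 with length correction.

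Signs turned in these cases, none of which passed the test. Median-of-ratios scaling, quantile normalization and length correction shifted the median of all tested genes by -0.059, -0.063 and -0.058, which is as large as or larger than most of these values in the fit without them. With median-of-ratios scaling Canx was at -0.035, Sel1l at -0.011 and Ern1 at -0.032. With quantile normalization Ern1 was at -0.035, Ppp1r15a at -0.036, Eif2ak3 at -0.041 and Heg1 at -0.012. With length correction Canx was at -0.0038, Ern1 at -0.039, Ppp1r15a at -0.023 and Heg1 at -0.040. With the replicate block Canx was at -0.028, Sel1l at -0.050, Dnajb9 at -0.0035 and Ern1 at -0.13.

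When 1 library was left out, log2 fold changes ran over these ranges in the genes whose sign turned: Edem1 -0.14 to 0.045, Ern1 -0.13 to 0.23, Ppp1r15a -0.082 to 0.24, Hspa5 -0.50 to 0.052, Hsp90b1 -0.20 to 0.075, Pdia6 -0.28 to 0.049, Pdia3 -0.26 to 0.087, Manf -0.54 to 0.12, Pdia4 -0.38 to 0.030, Dnajc3 -0.10 to 0.078, Dnajb11 -0.23 to 0.15, Hyou1 -0.51 to 0.12, Creld2 -0.89 to 0.28, Sdf2l1 -0.48 to 0.31, Derl3 -0.90 to 0.24, Canx -0.028 to 0.11, Sel1l -0.050 to 0.13, Dnajb9 -0.0035 to 0.34, Chac1 -0.76 to 0.027, Eif2ak3 -0.052 to 0.20, Trib3 -0.14 to 0.80, Lars1 -0.88 to 0.21, Heg1 -0.020 to 0.11 and Lyve1 -0.51 to 0.10.

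FPKM carry no depth, so counting error cannot be given, and it weighs most on the ATF4 and CHOP targets near 1 FPKM. With a filter of 0.1 FPKM, Asns and Psat1 enter and 4 of the 6 targets are positive, as are 63.8% of all genes tested with that filter.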
